A study of Arabidopsis thaliana with 6 samples.

Results

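UDP-glycosyltransferases (UGTs) were followed in Arabidopsis thaliana seeds, the anac089-2 mutant set against its wild-type background Columbia-0 (Col-0). The genes were UGT71B6, UGT76B1 and UGT78D2 together with every probe set whose title in the authors' comparison table holds the words UDP-glucosyl transferase, which gave 89 of 22746 probe sets. All 3 named genes carried those words too, so the rule reads titles alone. It was set with earlier results of these data known. ANAC089 encodes a membrane-anchored NAC transcription factor, and the comparison asked which transcripts depend on it while seeds are exposed to abscisic acid (ABA), a hormone that delays germination. Both groups had spent 3 days in water, dark and cold (4 °C), before 3 h at 22 °C in light with 5 µM ABA. Total RNA from 3 biological replicates of anac089-2 and 3 of wild type was hybridised to ATH1 arrays (Affymetrix), 1 replicate per array. The labels do not say what the anac089-2 allele changes in the gene, and no seeds without ABA were included, so a response to ABA itself was not measured. No probe set is analysed here under the name ANAC089.

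UGTs of this kind move a sugar from a UDP-sugar onto a small molecule such as a hormone, a flavonoid, a lignin precursor or a foreign compound. The sugar usually makes the molecule more soluble, stops a hormone from acting and lets the product be stored in the vacuole, and beta-glucosidases can take it off again. In Arabidopsis the family is large, its genes often lie side by side in tandem runs, and it is divided into phylogenetic groups that follow the family number in the gene's name (UGT73 is group D, UGT76 is group H). Seeds use such conjugates to inactivate ABA, auxin and cytokinin and to keep flavonoids and phenolic compounds in their coats.

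Of the 89 probe sets, 79 matched 1 gene, 4 matched several and 6 had no gene in the probe table. A UGT number stood in the symbol of 46 of the 79, and the other 33 are given by their locus. Median levels were 4.01, 4.00 and 4.01 on the anac089-2 arrays and 3.97, 3.98 and 3.80 on the wild-type arrays, and mean correlations within a group were 0.995 to 0.996 for the anac089-2 arrays and 0.982 to 0.989 for the wild-type arrays, wild-type replicate 3 being lowest. Seed storage and late embryogenesis genes were bright on all arrays. The 10 measured ones had a mean level of 12.39 to 12.48 on the anac089-2 arrays and 12.62 to 12.81 on the wild-type arrays. Of the 10, 3 were lower in anac089-2 (the storage protein gene CRB and the late embryogenesis genes EM1 and ECP63). That is 30%, against 1.98% of all probe sets and 4.78% of those at a mean level of at least 5. Endosperm markers were dim, with 5 of 6 under 4 on all arrays and a mean of 3.06 to 3.11 in anac089-2 and 3.00 to 3.18 in wild type. Under 4 on all arrays were also 2 of the 3 seed coat and 3 of the 7 embryo markers. The threshold (limma adjusted p under 0.05) was passed by 0 of 6 endosperm, 0 of 3 seed coat and 0 of 7 embryo markers. Markers this dim give little information on their tissue. Median log2 fold changes were -0.11 for the seed storage and late embryogenesis genes, 0.01 for endosperm, 0.05 for seed coat and 0.00 for embryo markers. What part these shifts have in the UGT values was not tested, and in whole seeds fewer cells of a type and less RNA per cell cannot be told apart.

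In anac089-2 seeds 9 of the 89 UGT probe sets fell and 1 rose at the deposited scaling, so that 11.2% passed the threshold, against 4.92% of all probe sets. The lower ones were UGT76B1, UGT73B4, GT72B1, UGT76E11, a probe set shared by UGT73B2 and UGT73B3, a probe set shared by AT2G36780 and AT2G36770, AT2G16890, AT5G65550 and the probe set 260567_at, by 1.52-fold to 3.94-fold. UGT76C2 rose by 1.89-fold. Over the whole array 2.94% of probe sets rose and 1.98% fell. Differences are anac089-2 minus wild type on the log2 scale throughout. The split depended on the scaling, since 4 members rose and 10 fell under cyclic loess normalization, and 3 rose and 10 fell under a second quantile normalization or median centring. The calls rested on all arrays but wild-type replicate 3: without anac089-2 replicate 1 or 3, 0 of the 10 passed (and 6 and 4 probe sets of the whole array did), without anac089-2 replicate 2 there were 6, without wild-type replicate 1 and replicate 2 there were 3 and 3, and without wild-type replicate 3 there were 10. All 10 kept their direction each time.

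Most UGT probe sets gave little signal in these seeds. Their mean level over the 6 arrays had a median of 3.57 (2.47 to 11.53), against 3.96 for all probe sets, and 45 of 89 lay under the array's median on every array. A mean level of at least 5 was reached by 26 members (29.2%), against 39.3% of all probe sets. Of those 26, 8 fell and 1 rose (34.6%), against 11.1% of all probe sets at that level (4.78% lower and 6.33% higher). Of the 63 members under 5, 1 fell (1.59%), against 0.92% of all such probe sets in either direction. Levels are signals of different probes and do not rank the genes by amount of transcript. No detection calls were at hand.

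Over all 89 probe sets the middle of the family lay close to that of the array, but among the brighter ones it lay lower. The median log2 fold change over all 89 was -0.04, against 0.04 for all probe sets. Among the 26 members at a level of at least 5 it was -0.14. All probe sets at that level had a median of 0.13 and a lower quartile of -0.12. Negative values were found for 50 members and positive values for 39, over a range of -1.98 to 1.11, and 19 members differed by more than 0.5 in size. The 3 anac089-2 arrays and the 3 wild-type arrays did not overlap for 24 members (27.0%), 17 of them lower and 7 higher in anac089-2, against 24.0% of all probe sets (8.23% lower and 15.8% higher).

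**Figure D1:**
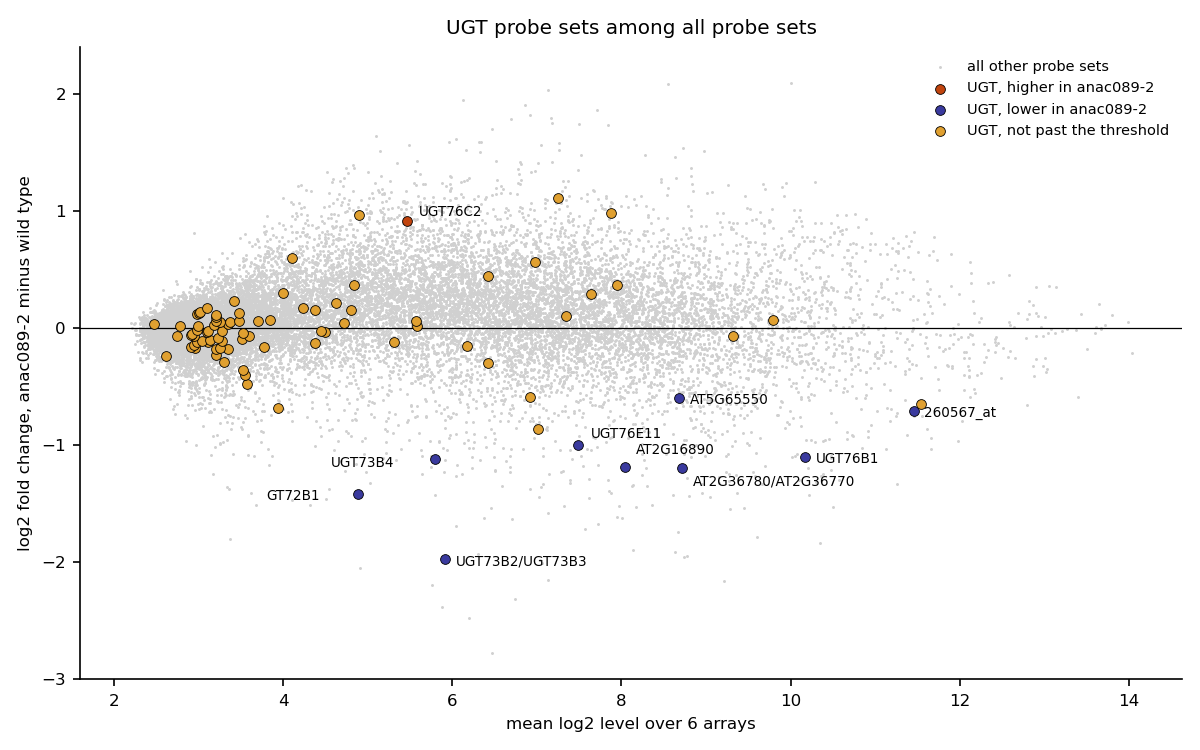
Log2 fold change (anac089-2 minus wild type) against the mean log2 level over 6 arrays for each probe set, with 89 UGT probe sets as large points over all others in grey, 4 of which lie beyond the axis limits. The 9 lower UGT probe sets (blue) lie between levels of 4.89 and 11.45, UGT76C2 (red) lies at 5.46, and most others crowd at low levels around 0.

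UGT76B1, which conjugates the immune signals salicylate, N-hydroxypipecolate and isoleucic acid, was among the brightest UGT probe sets and fell 2.15-fold. Its level was 9.53, 9.77 and 9.56 in anac089-2 seeds, against 10.88, 10.52 and 10.77 in wild-type seeds. Every anac089-2 array lay below every wild-type array, with 0.75 between the nearest pair. The log2 fold change was -1.10 (SE 0.13, adjusted p = 0.0117). The call was lost without anac089-2 replicate 1 or replicate 3 and held without each of the other 4 arrays (adjusted p between 0.0131 and 0.0824 over the 6). UGT74F1, another salicylate glucosyltransferase, had 4.43, 4.59 and 4.43 in anac089-2 and 4.43, 4.69 and 4.44 in wild type, a log2 fold change of -0.04 (SE 0.11, adjusted p = 0.896). Among the 6 measured genes of salicylate synthesis and response, ICS1 fell, the enzyme that makes most of the salicylate precursor isochorismate. It had 5.70, 5.98 and 5.38 in anac089-2 and 7.10, 6.62 and 6.42 in wild type (log2 fold change -1.03, SE 0.22, adjusted p = 0.0427), and the other 5 did not pass.

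The probe set shared by UGT73B2 and UGT73B3 showed the largest difference of the 89. Both are group D enzymes, UGT73B2 known for work on flavonoids and UGT73B3 for a part in redox balance during infection, and the probe set's signal cannot be given to either gene. It had 4.51, 5.58 and 4.70 in anac089-2 seeds, against 6.99, 6.57 and 7.16 in wild-type seeds. The groups were 0.99 apart at their nearest, with anac089-2 replicate 2 the highest of its group and wild-type replicate 2 the lowest. The log2 fold change was -1.98 (SE 0.29, adjusted p = 0.0163), a 3.94-fold lower signal. UGT73B4, which also acts on foreign compounds such as nitrotoluenes, had 4.79, 5.45 and 5.47 in anac089-2 and 6.64, 6.19 and 6.23 in wild type. Here anac089-2 replicate 1 was the low array of its group, the groups did not overlap, and the log2 fold change was -1.12 (SE 0.21, adjusted p = 0.0330). UGT73B5, the gene beside UGT73B4, had 3.3, 3.85 and 3.65 in anac089-2 and 4.78, 3.98 and 4.08 in wild type (log2 fold change -0.68, SE 0.24, adjusted p = 0.170). UGT73B5 thus did not pass, although its groups did not overlap, and it passed under 0 of 9 other settings of scaling, filter and spread. Among these 9, the authors' statistics and the omission of s_at probe sets repeat the main fit or nearly so. A fit with the replicate number as a block is not among them.

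GT72B1, listed in RefSeq also as UGT72B1, conjugates chlorinated phenols and anilines and also lignin precursors. Its level was 3.77, 4.73 and 4.04 in anac089-2 and 5.98, 5.55 and 5.26 in wild type, with no overlap between groups. It fell 2.67-fold (log2 fold change -1.42, SE 0.28, adjusted p = 0.0341). This was the single change past the threshold among the 63 dimmer members. UGT73C1, which acts on nitrotoluenes as well, had 3.55, 3.37 and 3.14 in anac089-2 and 3.87, 3.72 and 3.67 in wild type, a log2 fold change of -0.40 that did not pass (SE 0.13, adjusted p = 0.146). For the shared UGT73B2 and UGT73B3 probe set and for GT72B1 the call held only without anac089-2 replicate 2 or wild-type replicate 3 among the 6 omissions, and for UGT73B4 only without wild-type replicate 3.

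UGT76E11 belongs to a set of UGT76E enzymes reported to act on hydroxylated jasmonic acid. It had 6.69, 7.31 and 6.97 in anac089-2 and 8.21, 7.74 and 8.01 in wild type, so that all anac089-2 arrays lay below all wild-type arrays. The log2 fold change was -0.997 (SE 0.19, adjusted p = 0.0306), and the call held only without anac089-2 replicate 2 or wild-type replicate 3 among the 6 omissions. UGT76E12, its neighbour on chromosome 3, had 9.73, 9.94 and 9.82 in anac089-2 and 9.95, 9.50 and 9.83 in wild type. Those groups overlapped, and the log2 fold change was 0.07 (SE 0.14, adjusted p = 0.837). UGT76E1 and UGT76E2 on chromosome 5 stood at mean levels of 2.75 and 3.85, with log2 fold changes of -0.07 and 0.07.

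The remaining 4 lower probe sets carry no UGT number in the tables used here, so no substrate is given for them. The probe set shared by the adjoining genes AT2G36780 and AT2G36770 had 7.80, 8.49 and 8.07 in anac089-2, against 9.26, 9.28 and 9.42 in wild type. Its wild-type arrays lay within 0.16 of each other while the anac089-2 arrays spread over 0.69, and the log2 fold change was -1.20 (SE 0.18, adjusted p = 0.0163). That call was lost without anac089-2 replicate 1, anac089-2 replicate 3 or wild-type replicate 2. AT2G16890 had 7.26, 7.63 and 7.46 in anac089-2 and 8.72, 8.36 and 8.83 in wild type (log2 fold change -1.19, SE 0.16, adjusted p = 0.0134). As with UGT76B1, its call was lost only without anac089-2 replicate 1 or replicate 3. The probe set 260567_at had 10.85, 11.27 and 11.18 in anac089-2 and 11.88, 11.73 and 11.81 in wild type (log2 fold change -0.71, SE 0.13, adjusted p = 0.0298). AT5G65550 had 8.23, 8.41 and 8.51 in anac089-2 and 9.17, 8.84 and 8.94 in wild type (log2 fold change -0.60, SE 0.13, adjusted p = 0.0443). The groups did not overlap for any of these 4 probe sets, and the calls of 260567_at and AT5G65550 were lost in 5 of the 6 omissions of an array, all but that of wild-type replicate 3.

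**Figure D2:**
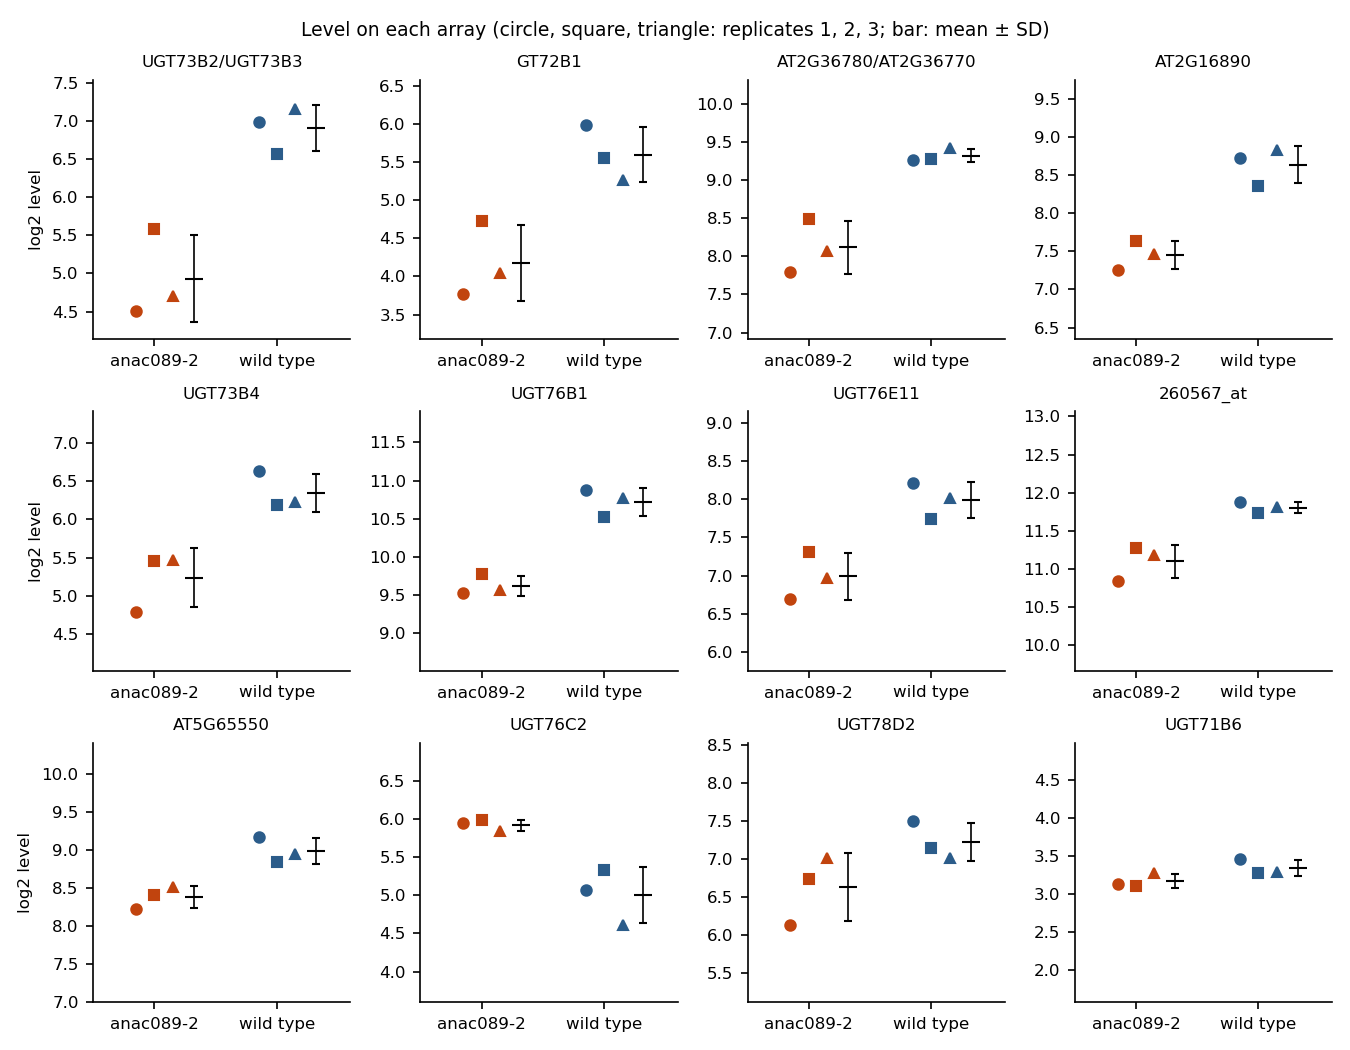
Log2 level on each array for the 10 UGT probe sets past the threshold and for UGT78D2 and UGT71B6, anac089-2 (red) left of wild type (blue), with circles, squares and triangles for replicates 1, 2 and 3 and bars for mean ± SD (n = 3 each). The groups are apart in the first 10 panels, UGT76C2 alone being higher in anac089-2, and overlap for UGT78D2 and UGT71B6.

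The cytokinin glucosyltransferase UGT76C2 was the only member to rise past the threshold at the deposited scaling. Under median centring or a second quantile normalization 3 members rose, and under cyclic loess 4. UGT76C1 and UGT76C2 attach glucose to ring nitrogens of cytokinins, which inactivates them. UGT76C2 had 5.94, 5.98 and 5.84 in anac089-2 seeds, against 5.07, 5.33 and 4.61 in wild-type seeds. The anac089-2 arrays lay close together (mean 5.92 ± 0.07, SD, n = 3) and above the more scattered wild-type arrays (mean 5.00 ± 0.36, SD, n = 3). The log2 fold change was 0.92 (SE 0.18, adjusted p = 0.0348), and the call held only without wild-type replicate 2 or replicate 3 among the 6 omissions of an array. UGT76C1 had 6.19, 6.09 and 6.01 in anac089-2 and 6.66, 6.17 and 5.92 in wild type, with overlapping groups and a log2 fold change of -0.15 (SE 0.19, adjusted p = 0.718). Of 27 listed genes of cytokinin synthesis and breakdown 10 were measured, IPT1 to IPT9 and APT1, and 0 passed. The listed CKX genes of cytokinin breakdown were not found by name, so breakdown was not covered. The largest differences there were 0.99 for APT1, which salvages cytokinin bases (adjusted p = 0.0770), and 0.35 for IPT9, which modifies transfer RNA (adjusted p = 0.450).

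Of the listed ABA glucosyltransferases, 4 were found by symbol with a probe set of their own, and 0 of these passed the threshold. AT3G21790, which lies between UGT71B6 and UGT71B8, is given by its locus only and was not counted with them. Its log2 fold change was 0.60 (SE 0.23, adjusted p = 0.208). UGT71B6, which makes the ABA glucose ester, was dim, with 3.13, 3.1 and 3.28 in anac089-2 and 3.46, 3.27 and 3.29 in wild type. The groups overlapped, every value lay under its array's median, and the log2 fold change was -0.17 (SE 0.10, adjusted p = 0.443). UGT71C5, another enzyme known to make the ester in Arabidopsis, had a clear signal of 7.42, 7.35 and 7.42 in anac089-2 and 7.28, 7.24 and 7.37 in wild type. Its log2 fold change was 0.10 (SE 0.09, adjusted p = 0.619). UGT71B8 had 4.47, 4.25 and 4.25 in anac089-2 and 4.49, 4.25 and 3.71 in wild type (0.17, SE 0.20, adjusted p = 0.699), and UGT73B1 lay between 2.94 and 3.58 on all arrays (-0.09, SE 0.18, adjusted p = 0.838). Of 12 listed genes of ABA release and inactivation 4 were measured, and the listed CYP707A genes were not among them. Of the 4, MRP2 fell, a vacuolar transporter that can carry the ABA glucose ester. MRP2 had 4.48, 4.79 and 4.80 in anac089-2 and 5.81, 5.92 and 5.54 in wild type (log2 fold change -1.07, SE 0.14, adjusted p = 0.0136). Its relative MRP1 had a log2 fold change of -0.26, and the beta-glucosidase genes BG1 and BGLU33, whose enzymes split the ester, had mean levels of 2.78 and 2.51 in anac089-2 and 3.01 and 2.48 in wild type.

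UGT78D2, the flavonoid 3-O-glucosyltransferase of flavonols and anthocyanins, did not pass. Its level was 6.14, 6.74 and 7.01 in anac089-2 and 7.50, 7.15 and 7.01 in wild type. The spread within anac089-2 was 0.87, replicate 3 of the mutant reached wild-type replicate 3, and the log2 fold change was -0.59 (SE 0.24, adjusted p = 0.229). UGT78D1, a flavonol rhamnosyltransferase, had a log2 fold change of 0.30 (SE 0.30, adjusted p = 0.659) and UGT78D3, a flavonol arabinosyltransferase, had 0.02 at a mean level of 3.00. Of 13 measured genes of flavonoid aglycone synthesis 0 passed, and their median log2 fold change was 0.03. The largest were CHI, chalcone isomerase, at -0.66 (adjusted p = 0.0694) and TTG1, a regulator of seed coat pigments, at 0.66 (adjusted p = 0.203).

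The auxin and phenylpropanoid enzymes listed next did not pass the threshold, whereas GT72B1, given above, did. UGT84B1, UGT84B2 and UGT74D1, which conjugate auxins, stood at mean levels of 3.3, 2.96 and 2.99 and had log2 fold changes of -0.29, -0.17 and -0.12 (adjusted p = 0.263, 0.498 and 0.668). UGT72E1, which glucosylates monolignol aldehydes, had 7.88, 7.84 and 7.65 in anac089-2 and 7.61, 7.56 and 7.32 in wild type. Its groups did not overlap, by 0.04, but the difference of 0.29 did not pass (SE 0.12, adjusted p = 0.241). UGT84A3, a hydroxycinnamate glucosyltransferase, had a log2 fold change of 0.44 (SE 0.22, adjusted p = 0.334). UGT84A1, UGT84A4, UGT72E2, UGT72E3 and UGT71C1, enzymes of the same class of substrates, lay between -0.10 and 0.06. UGT74B1, which adds the glucose in glucosinolate synthesis, had 5.63, 5.50 and 5.68 in anac089-2 and 6.04, 5.51 and 5.09 in wild type (0.06, SE 0.22, adjusted p = 0.921).

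The aglycone pathways beside these enzymes had 0 or 1 call each. In auxin conjugation 1 of 8 measured genes passed, GH3.5, an enzyme that joins auxin and salicylate to amino acids. GH3.5 had 4.82, 4.50 and 4.60 in anac089-2 and 3.59, 3.87 and 3.22 in wild type, and rose (log2 fold change 1.08, SE 0.18, adjusted p = 0.0215). In glucosinolate synthesis 1 of 13 passed, CYP83B1 of the indole branch, which had 5.31, 5.27 and 5.42 in anac089-2 and 4.82, 4.81 and 4.89 in wild type (log2 fold change 0.49, SE 0.09, adjusted p = 0.0311). In phenylpropanoid synthesis 0 of 14 passed, and the largest differences were 0.54 for FAH1, ferulate 5-hydroxylase (adjusted p = 0.198), and 0.42 for ALDH2C4, which makes ferulate and sinapate from their aldehydes (adjusted p = 0.0953). Over all related lists together, 131 probe sets, 4 rose and 9 fell (9.92%), against 2.94% higher and 1.98% lower over all probe sets. The median over these was -0.02, against 0.04. Without anac089-2 replicate 1 or replicate 3, 0 of the 131 passed, without anac089-2 replicate 2 there were 6, and without wild-type replicates 1, 2 and 3 there were 6, 2 and 20.

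Several members came near the threshold without passing it. AT5G05880 had the largest positive difference of the family, with 8.03, 7.90 and 7.49 in anac089-2 and 7.16, 6.82 and 6.10 in wild type (log2 fold change 1.11, SE 0.28, adjusted p = 0.0676). AT2G36970 had 8.45, 8.17 and 8.48 in anac089-2 and 7.88, 7.30 and 6.98 in wild type (log2 fold change 0.98, SE 0.23, adjusted p = 0.0555). Both passed under 6 of 9 other settings, while UGT71C2, at 0.96 (SE 0.25, adjusted p = 0.0755), passed under 3. With the replicate number as a block, which is not among the 9, limma adjusted p was 0.0388 for AT5G05880 and 0.0483 for UGT71C2. It was 0.0658 for AT2G36970. AT5G49690 had 6.30, 6.89 and 6.57 in anac089-2 and 7.86, 7.38 and 7.10 in wild type, and its log2 fold change of -0.86 (SE 0.22, adjusted p = 0.0788) passed under 5 of the 9. The groups did not overlap for any of these 4. In the brightest probe set, 263231_at, the level was 10.81, 11.49 and 11.33 in anac089-2 and 11.79, 11.90 and 11.89 in wild type (log2 fold change -0.65, SE 0.18, adjusted p = 0.0892). UGT87A2, a bright member known for an effect on flowering time, had 9.11, 9.39 and 9.36 in anac089-2 and 9.75, 9.20 and 9.11 in wild type (-0.07, SE 0.18, adjusted p = 0.883).

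Probe sets were placed in phylogenetic groups only by the UGT number in their symbol. The 42 that this left without a group may belong to the groups named here, so the counts are incomplete. Among those placed, group D held only negative values. All 8 of its probe sets were negative, also under each other scaling, 2 fell, and their median log2 fold change was -0.32, or -0.68 over the 5 left without the dimmest 40% of probe sets. Without anac089-2 replicate 1, wild-type replicate 1 or wild-type replicate 2, 7 of the 8 were negative. Group H had 8 probe sets with 1 higher and 2 lower, from -1.10 for UGT76B1 to 0.92 for UGT76C2, and a median of 0.00. Past the threshold were thus 25% of the probe sets placed in group D and 37.5% of those placed in group H. The share was 4.92% over all probe sets and 11.1% over those at a level of at least 5. That level was reached by 2 of the 8 in group D and 5 of the 8 in group H. Left unplaced were the lower probe set shared by AT2G36780 and AT2G36770, in a run with UGT73C1, and AT5G05880, in a run with UGT76C1. In group E 1 of 15 fell, and the median was 0.06, close to the 0.04 of all probe sets. Of the 3, 4, 1 and 8 probe sets placed in groups F, G, J and L, 0 passed the threshold. Their medians were 0.02, -0.01, -0.07 and -0.07. Among the 42 probe sets without a UGT number 4 fell, with a median of -0.03. These counts describe the groups and were not tested against each other.

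**Figure D3:**
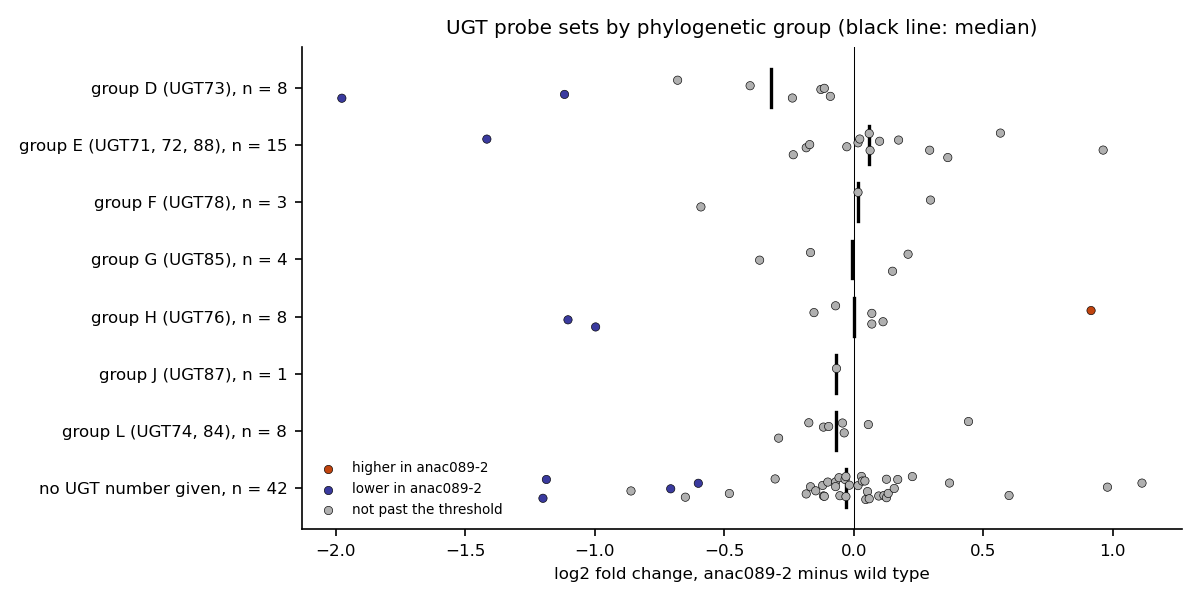
Log2 fold change (anac089-2 minus wild type) of the 89 UGT probe sets, 1 point each, by phylogenetic group as read from the UGT number. The 42 probe sets without a number form a row of their own. Black lines mark medians, and points are spread vertically for clarity. All 8 group D points lie left of 0, with a median of -0.32, and group H holds the 1 higher and 2 of the lower probe sets.

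Calls of tandem neighbours were set side by side. By the RefSeq gene order (TAIR10.1), 50 of the 89 probe sets fell into 17 runs of member genes with at most 1 other protein-coding gene between consecutive members, the longest with 7. A run with a member past the threshold occurred 5 times, and 0 runs had more than 1. On chromosome 3 the run of 7 held UGT76E11, which fell, beside UGT76E12 at 0.07 and AT3G46650, AT3G46680, AT3G46690, AT3G46700 and AT3G46720, all at 3.69 or less on every array. The run on chromosome 5 joined UGT76C2, UGT76C1, AT5G05880, AT5G05890 and AT5G05900, whose log2 fold changes were 0.92, -0.15, 1.11, -0.18 and -0.03. AT5G05880 passed beside UGT76C2 in several other settings, among them cyclic loess, median centring and omission of wild-type replicate 3, and this run then held 2 calls. On chromosome 2 the shared AT2G36780 and AT2G36770 probe set lay beside UGT73C1 and UGT73C2, at -0.40 and -0.24, both under 4 on all arrays. UGT73B4 and UGT73B5, also on chromosome 2, were -1.12 and -0.68. On chromosome 4 the shared UGT73B2 and UGT73B3 probe set, at -1.98, adjoined UGT73B1 at -0.09, which had little signal. Differences between neighbours were not tested, and a dim neighbour gives little information on its own change.

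**Figure D4:**
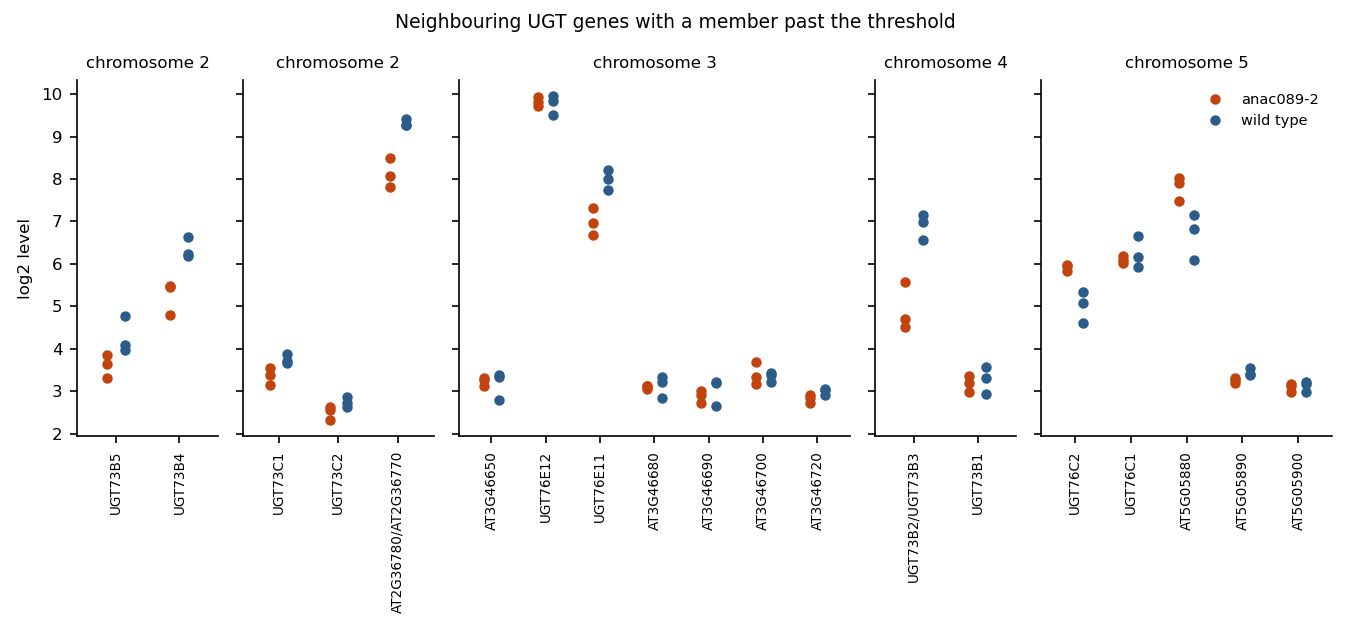
Log2 level on each array of the UGT probe sets in the 5 tandem runs with a member past the threshold, in chromosomal order, anac089-2 (red) left of wild type (blue), 3 points each. Each run holds 1 probe set past the threshold, and the UGT76E11 run on chromosome 3 holds 5 others at 3.69 or less on every array beside the bright UGT76E12.

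Averaged over the 9 lower probe sets, the level was 7.05, 7.63 and 7.33 on the anac089-2 arrays, against 8.64, 8.31 and 8.49 on the wild-type arrays. In 7 of the 9, anac089-2 replicate 2 lay nearest to the wild-type mean, and in the other 2 it was replicate 3. Wild-type replicate 2 lay nearest to the anac089-2 mean in 7 of the 9 as well. The same held for anac089-2 replicate 2 in 320 and for wild-type replicate 2 in 181 of all 451 probe sets that fell. The 9 were chosen for their difference, so this is a description of how their arrays spread.

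Among 18 probe sets titled as enzymes that make or interconvert UDP-sugars, 3 fell and 0 rose (16.7%, against 4.92% of all probe sets). A mean level of at least 5, where 11.1% of all probe sets passed, was reached by 10 of the 18. The median log2 fold change of the 18 was 0.03. Lower were the sucrose synthase probe set 255521_at (-0.73, adjusted p = 0.0435) and the UDP-glucose 6-dehydrogenase probe set 256745_at (-0.48, adjusted p = 0.0485). The UDP-glucose 4-epimerase probe set 259694_at was lower as well (-0.68, adjusted p = 0.0186). The epimerase had 8.22, 8.46 and 8.25 in anac089-2 and 8.93, 9.05 and 8.99 in wild type. By gene symbol only 5 such genes were measured and 0 passed, the nearest being USP, a UDP-sugar pyrophosphorylase, at -0.50 (adjusted p = 0.0507), and SUS1, a sucrose synthase, at -0.55 (adjusted p = 0.102). Among 40 probe sets of beta-glucosidases, which take the sugar off, 2 rose and 2 fell (10%, against the same 4.92%). Some of the 40 are shared by several genes. BGLU28, which is known to break down glucosinolates under sulfur shortage, had 4.61, 4.53 and 4.91 in anac089-2 and 7.38, 6.62 and 7.20 in wild type (log2 fold change -2.38, SE 0.21, adjusted p = 0.0073). BGLU44 had 7.14, 6.40 and 6.77 in anac089-2 and 5.63, 5.53 and 5.38 in wild type (log2 fold change 1.26, SE 0.19, adjusted p = 0.0169). The other pair was 251428_at, lower at -0.93 (adjusted p = 0.0341), and 263730_at, higher at 1.01 (adjusted p = 0.0485).

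Of 15 listed marker genes of mitochondrial stress 6 were measured, and 2 of these 6 fell (33.3%, against 4.92% of all probe sets in either direction). Those 2 were also the 2 at a mean level of at least 5, where 11.1% of all probe sets passed. The list was chosen with earlier results of these data known, so its share is a description only. AOX1A, the alternative oxidase induced when the respiratory chain is blocked, had 4.18, 5.29 and 4.51 in anac089-2 and 6.88, 7.13 and 6.55 in wild type (log2 fold change -2.19, SE 0.29, adjusted p = 0.0129). NDB2, an alternative NADH dehydrogenase, had 7.50, 8.11 and 7.80 in anac089-2 and 8.61, 8.53 and 8.50 in wild type (log2 fold change -0.74, SE 0.16, adjusted p = 0.0446). The 2 genes lay lower on each anac089-2 array than on any wild-type array.

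**Figure D5:**
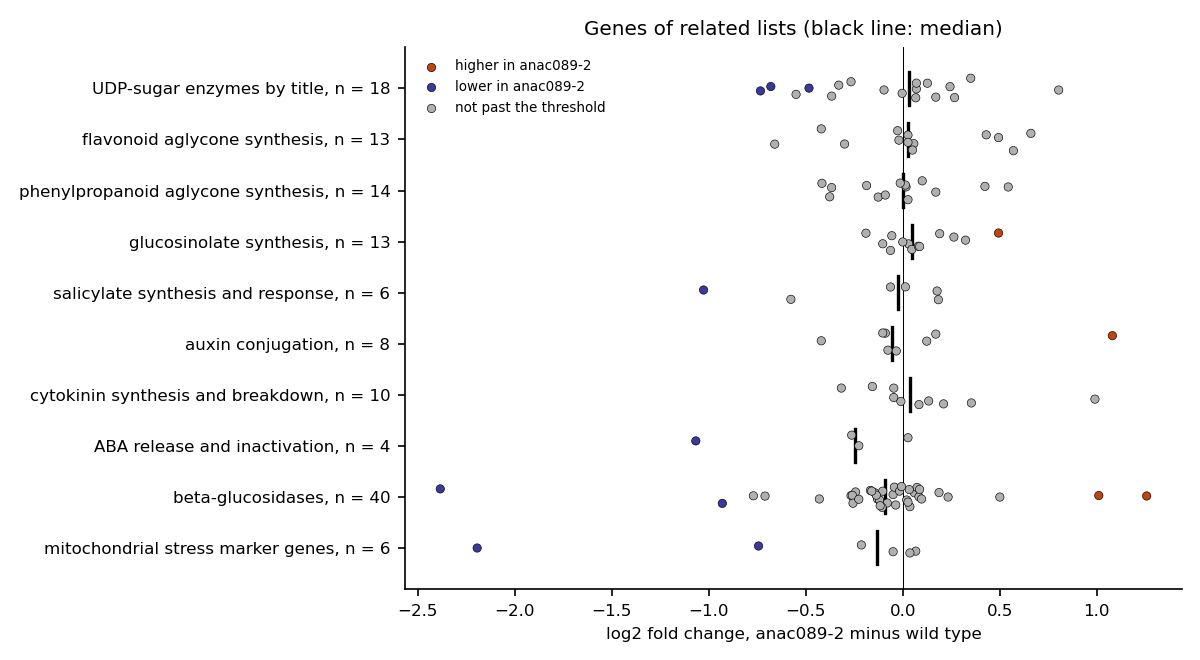
Log2 fold change (anac089-2 minus wild type) of the measured genes in 10 lists related to the UGTs, with a black line at each list's median. Each point is 1 gene or, for the UDP-sugar enzymes and the beta-glucosidases, 1 probe set. The lowest of those past the threshold are BGLU28 at -2.38 among the beta-glucosidases and AOX1A at -2.19 among the mitochondrial stress genes.

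Some UGT genes have titles worded otherwise and were outside the 89. Of 7 such probe sets 0 passed. The auxin enzyme gene IAGLU had 8.88, 9.71 and 9.36 in anac089-2 and 9.48, 9.05 and 9.30 in wild type (0.04, SE 0.22, adjusted p = 0.945). The probe set titled UGT75B2 had 7.57, 8.28 and 8.15 in anac089-2 and 8.83, 8.56 and 8.78 in wild type, which did not overlap but did not pass (-0.72, SE 0.19, adjusted p = 0.0846). The sterol glucosyltransferase genes SGT (UGT80A2) and UGT80B1 had log2 fold changes of -0.17 and -0.59 (adjusted p = 0.441 and 0.147).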

How the data were processed

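Log2 levels per probe set are as the authors deposited them, and the submitters' processing notes name RMA (robust multi-array averaging) and limma for them. The sources used here give no versions and no array definition. The authors also deposited a comparison table whose file headers name log2 fold changes, a signed fold change, p-values and FDR values. Its titles served to choose the members. Its largest difference in log2 fold change from the fit described next was 0.0133. FDR values without a decimal point, 4 in number, were taken as 1, and 6 columns of per-array values were not used.

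All 22746 probe sets, with 64 controls set aside, were fitted with limma 3.58.1 in R 4.3.3 (lmFit, eBayes, 2 groups) and Benjamini-Hochberg adjustment over all of them, with a threshold of 0.05. The procedure was tested on simulated data. An exact two-sided permutation test of 3 against 3 arrays cannot go below 0.1 and was not used. Precision is limited by the number of arrays. Gene names come from the probe table, in which 13513 probe sets have 1 symbol, 503 have several and 8730 are not listed, with loci and neighbours from RefSeq (TAIR10.1). No coordinates are printed because the files name no build.

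The members and gene lists were chosen with earlier results of these data known, and the UDP-sugar list by title was added after the tables were seen. Where several probe sets measured a list gene, the brightest stood for it, except that the UDP-sugar list by title kept every matching probe set. Named are UGT71B6, UGT76B1 and UGT78D2, members past the threshold, the 5 largest that miss it, the 6 brightest, members with a listed substrate, and for each list up to 4 genes past the threshold or else the 2 largest. Neighbours and other genes named for comparison were chosen after their values were seen. Alternatives were a second quantile normalization, cyclic loess, median centring, omission of the dimmest 40%, an intensity trend, robust spread, array weights, a replicate block, the authors' statistics, thresholds of 0.01 and 0.1, omission of s_at probe sets, and omission of each array. A motif search of promoters was planned and not run, because no promoter sequence was at hand.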

Additional observations from a re-analysis of the deposited data

How the results depend on the processing

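Each of the 10 UGT probe sets past the threshold kept its direction under every alternative it was tested in, and all 10 stayed past under a second quantile normalization, cyclic loess, median centring, an intensity trend, a robust spread, array weights, leaving out the dimmest 40% of probe sets and the authors' deposited statistics (10 to 14 members past). At adjusted p under 0.01 there were 0 members past (0 lower, 0 higher), 45 probe sets overall and 1 gene of the related lists, and at 0.1 there were 4 higher members, 2043 probe sets and 20 list genes. Leaving out 1 array at a time gave 0 to 12 members past (0 to 10 lower, 0 to 2 higher), 4 to 1667 probe sets and 0 to 20 list genes, against 10, 1120 and 13 with all arrays. Array weights gave 4 higher members, 2070 probe sets and 24 list genes, cyclic loess gave 4, 1784 and 20, and a second quantile normalization gave 3 higher members and 1701 probe sets. Higher members also numbered 3 with an intensity trend, 3 with median centring and 4 without the dimmest 40%. With the replicate number as a block, which the labels do not describe as a pairing, there were 4 lower and 3 higher members, 494 probe sets and 7 list genes, and 5 of the 10 calls held. Residuals of arrays with the same number correlated at -0.09, -0.06 and -0.14, and 0 of the 3 numbers matched best with themselves. The causes of these changes were not tested, except that the 2 adjusted p limits act by their construction. Median log2 fold changes of all probe sets were 0.04 as deposited, -0.05 after median centring and 0.12 without the dimmest 40%, and that of the UGT members stayed between -0.13 and 0.01. With no measure of signal over background at hand, what the dim members can show is limited.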
